A study of Mus musculus with 4 samples.

Results

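Matrix metalloproteinases (Mmp) and their tissue inhibitors (Timp) were followed in freshly isolated mouse muscle stem cells, also called satellite cells. The cells came from mice with a conditional knockout of the splicing regulator Rbfox2 and from Control mice. The gene group holds 10 genes of the 55487 in the deposited tables, 6 Mmp and 4 Timp genes, found by their symbols. All 10 passed the filter on low counts. Mmp2 was selected on its lower measured level in the knockout libraries of these same data, so its difference between the groups is given as a description without a p-value.

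The Rbfox2 cKO group (conditional knockout, 2 libraries) came from mice in which a floxed Rbfox2 gene was deleted through Pax7CreERT2, a tamoxifen-inducible Cre driven by the satellite cell gene Pax7, with a Rosa26 EYFP allele that marks the cells after recombination. The Control group (2 libraries) is labelled only as Control. Whether it shared the Cre or reporter alleles or the tamoxifen, and how old the mice were, is not given in the sources used here, nor is whether a library is 1 animal or a pool. Both groups were skeletal muscle stem cells taken without culture.

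Mmp enzymes cut proteins of the extracellular matrix. They are made as inactive precursors, and their active centre holds a zinc ion bound by histidines. A Timp protein blocks the enzyme by placing its first cysteine on that zinc. Mmp14, a protease anchored in the cell membrane, activates Mmp2 at the cell surface with Timp2 as the link between them. In muscle, these enzymes remodel the basement membrane that encloses the satellite cell, and Mmp2 and Mmp9, the gelatinases, are the members most studied there.

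The coding sequence of the zinc site and of the first cysteines is shown because these are the parts through which enzyme and inhibitor meet. In the Mmp genes the window of 33 bases runs over the zinc-binding site, 5′ to 3′, and capitals mark its histidine codons:
Mmp2: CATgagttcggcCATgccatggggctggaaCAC
Mmp9: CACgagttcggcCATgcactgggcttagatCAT
Mmp11: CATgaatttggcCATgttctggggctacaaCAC
Mmp14: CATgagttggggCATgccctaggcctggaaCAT
Mmp15: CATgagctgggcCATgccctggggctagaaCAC
Mmp19: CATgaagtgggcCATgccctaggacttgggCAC

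In the Timp genes the window of 15 bases runs over the start of the mature inhibitor, and capitals mark the cysteine codons:
Timp1: TGTagcTGTgcccca
Timp2: TGCagcTGCtccccg
Timp3: TGCacaTGCtctccc
Timp4: TGCagcTGTgcgcct

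Each coding sequence held 1 match to its site. Over the 33 bases, Mmp15 had 29 in common with Mmp2, Mmp14 had 27, Mmp11 had 26, Mmp9 had 25 and Mmp19 had 24. On GRCm38 the site lay in exon 8 of 13 in both gelatinases, at chr8:92839279-92839311 on the plus strand in Mmp2 and chr2:164951133-164951165 on the plus strand in Mmp9. It lay in exon 5 of the other Mmp genes, at chr14:54437627-54437659 (plus strand) in Mmp14, chr8:95368585-95368617 (plus) in Mmp15, chr10:75926931-75926963 (minus) in Mmp11 and chr10:128795673-128795705 (plus) in Mmp19. The cysteine codons lay in exon 1 of Timp2 (chr11:118354998-118355012, minus), Timp3 (chr10:86300923-86300937, plus) and Timp4 (chr6:115251677-115251691, minus), and in exon 2 of Timp1 (chrX:20871111-20871125, plus).

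The libraries held between 68884091 and 101997422 estimated counts. Rbfox2 itself stood at 40.04 and 15.2 normalised CPM (read counts scaled to a common library size) in cKO 1 and 2, against 131 and 55.98 CPM in Control 1 and 2, which edgeR's quasi-likelihood test put at -1.76 on the log2 scale (SE 0.35), with an adjusted p = 0.000252. With all 4 libraries it was called in 4 alternatives and lost under library totals (edgeR adjusted p = 1.00), without a low-count filter (0.688), with the 5 CPM filter (0.339) and in limma (0.237). The call was also lost with any 1 library left out, with log2 fold changes of -2.61 without cKO 1, -1.29 without cKO 2, -1.04 without Control 1 and -2.28 without Control 2. The cKO 1 library had a higher low-level background than the others: the median level of 1975 olfactory and vomeronasal receptor genes, in TPM (a transcript abundance corrected for length and scaled to a fixed sum), was 0.636 in cKO 1 and 0.230 in cKO 2, against 0.330 and 0.394 in Control. Satellite cell markers such as Pax7 were present in all libraries, with a sum over 15 genes of 18304 and 18722 TPM in cKO and 18560 and 17831 TPM in Control. Most of this sum was Sdc4, with 10958 and 11823 TPM in cKO and 12058 and 11384 TPM in Control. Since nothing states that the replicates are separate animals, each p-value reflects no more than how these libraries differ among themselves, which may be technical.

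Levels of different genes are set side by side in TPM, which is corrected for transcript length. Timp3, an inhibitor that stays bound to the matrix and also blocks several Adam and Adamts proteases, had the highest level of the 10 genes in every library, with 218 and 240.2 TPM in cKO 1 and 2, against 302 and 231 TPM in Control 1 and 2. Mmp2 had the second highest level in Control, at 152 and 181 TPM, and stood at 94.3 and 64.0 TPM in cKO. In cKO it did not stand apart from Timp1, at 80.2 and 66.8 TPM, since their ranges overlapped, while in Control Timp1 was well below it at 48.8 and 46.6 TPM.

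The middle of the order was held by Mmp14 and Timp2. Mmp14 stood at 75.9 and 37.4 TPM in cKO, against 18.6 and 32.1 TPM in Control, and Timp2 at 41.6 and 48.6 TPM in cKO, against 38.3 and 31.4 TPM in Control. Their ranges overlapped within each group, so neither ranks above the other. Mmp19 followed at 14.5 and 11.2 TPM in cKO and 15.1 and 16.2 TPM in Control, and Timp4, best known as the inhibitor of heart muscle, at 5.65 and 6.26 TPM in cKO and 6.27 and 5.41 TPM in Control. Mmp9, Mmp11 and Mmp15 were at the bottom, between 0.322 and 1.69 TPM in all libraries.

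**Figure D1:**
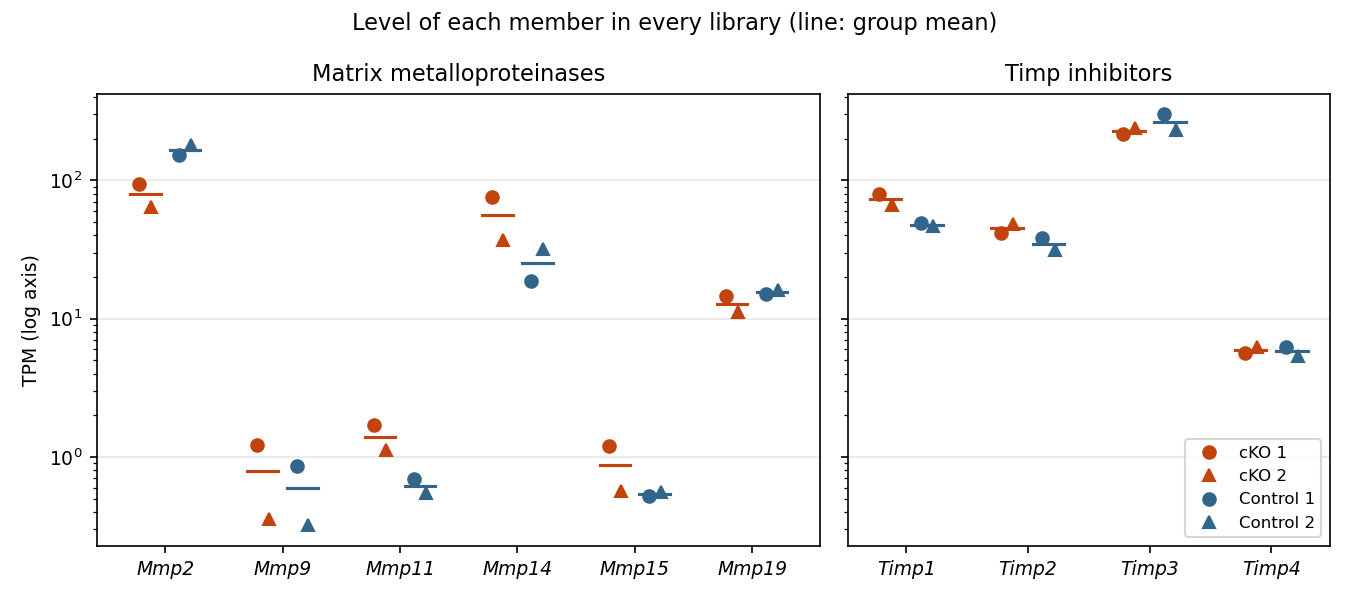
TPM of the 6 Mmp and 4 Timp genes in each library on a log axis, with cKO libraries in red and Control libraries in blue and a line at each group mean. Mmp2 and Mmp19 lay lower and Mmp11, Mmp14, Mmp15, Timp1 and Timp2 lay higher in both cKO libraries than in both Control libraries. For Mmp15, cKO 2 (0.566 TPM) and Control 2 (0.558 TPM) nearly met, as did cKO 1 (14.5 TPM) and Control 1 (15.1 TPM) for Mmp19.

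For the comparison of cKO with Control, estimated counts of all genes were fitted together with edgeR's quasi-likelihood test, and a gene is called at a Benjamini-Hochberg adjusted p under 0.05. Of the 10 genes, 0 were called, against 0.551% of the 38143 genes tested. Mmp2 aside, 1 gene, Mmp14, had an unadjusted p under 0.05, as did 4.83% of all genes. DESeq2 called 1 of the 10 and 0.252% of all genes. That gene was Mmp2, and nothing is read from its call, since it was selected on this contrast. In limma on log2(TPM + 1), 0 of the 8 genes tested were called, against 0.308% of all genes. The median log2 fold change was 0.23 over the 10 genes, beside 0.06 over all genes tested, of which 55.0% had a positive value.

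The libraries of the groups did not overlap in normalised CPM for 4 genes that were higher in cKO (Mmp11, Mmp14, Mmp15 and Timp1), against 18% of all genes, and for 2 that were lower (Mmp2 and Mmp19), against 13.3% of all genes. Mmp2 was selected on its lower level in these libraries, so nothing is read from its separation. In either direction such a separation was found for 31.3% of all genes, so it is common with 2 libraries a group.

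Mmp2 (gelatinase A; GRCm38 chromosome 8, 92827291 to 92853420) degrades type IV collagen of basement membranes and denatured collagens. It stood at 126.4 and 124.9 CPM in cKO 1 and 2, against 277 and 325 CPM in Control 1 and 2. The cKO libraries were nearly alike in CPM but not in TPM, with 94.3 TPM in cKO 1 and 64.0 TPM in cKO 2. Their likeness therefore depends on the scaling. On both scales the cKO libraries lay below the lower Control library. The means were 126 ± 1.03 CPM in cKO and 301 ± 34.2 CPM in Control (SD, n = 2 each), a log2 fold change of -1.26 (SE 0.36), or 2.40-fold lower. In TPM, which are scaled to the sum over all transcripts rather than by the TMM factor, the difference was -1.08 (SE 0.19) on the log2(TPM + 1) scale.

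Mmp2 kept its direction with each library left out, with log2 fold changes of -1.26 without cKO 1, -1.32 without cKO 2, -1.39 without Control 1 and -1.16 without Control 2. Such a constant direction follows from groups that did not overlap. Fits that leave 1 library in a group assume that it varies like the other group. In bulk RNA, fewer cells of a type and less RNA per cell cannot be told apart, and Mmp2 is also made by fibroblasts. The summed level of 19 markers of fibroadipogenic progenitors and fibroblasts was 3105 and 2968 TPM in cKO, against 2656 and 2737 TPM in Control. The sums did not overlap, but most of each came from Gsn and Medag. Gsn stood at 1145 and 1066 TPM in cKO, against 849 and 937 TPM in Control. Medag stood at 998 and 1112 TPM in cKO, against 1007 and 905 TPM in Control, with overlap. Col3a1 was lower, at 172 and 135 TPM in cKO, against 181 and 235 TPM in Control. Of the 19 markers 0 were called, 14 had a positive and 5 a negative log2 fold change (median 0.18), and 0 were at 0 counts. Without overlap in CPM, 8 were higher in cKO, against 18% of all genes, and 1 was lower, against 13.3%. Their part in the Mmp2 level was not tested.

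Mmp14 (membrane-type; chromosome 14, 54431612 to 54445364), the surface activator of Mmp2, stood at 84.0 and 60.5 CPM in cKO, against 27.8 and 47.9 CPM in Control. The groups did not overlap, but both varied widely, with means of 72.3 ± 16.6 CPM in cKO and 37.9 ± 14.2 CPM in Control (SD, n = 2 each). The log2 fold change was 0.93 (SE 0.34), with an adjusted p = 0.399 in edgeR. It stayed positive with each library left out, at 0.69 without cKO 1, 1.08 without cKO 2, 0.57 without Control 1 and 1.35 without Control 2. Mmp14 and Mmp2 therefore had log2 fold changes of opposite sign in each of these fits, as follows from groups that did not overlap for either gene. Endothelial cells also make Mmp14, and 14 endothelial markers summed to 628 and 491 TPM in cKO, against 373 and 427 TPM in Control, with 0 called and 0 at 0 counts. Of these markers 12 had a positive log2 fold change (median 0.31) and 2 a negative one. Without overlap in CPM, 9 were higher in cKO, against 18% of all genes, and 0 were lower. Their part in the Mmp14 level was not tested.

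Because it is taken within a library, the ratio of the TPM of these genes does not depend on the scaling between libraries. There were 1.24 and 1.71 Mmp2 transcripts for each Mmp14 transcript in cKO 1 and 2, against 8.17 and 5.62 in Control 1 and 2. The groups were far apart on this ratio, with means of 1.48 ± 0.334 in cKO and 6.90 ± 1.80 in Control (SD, n = 2 each). It rests on the same libraries in which the fall of Mmp2 was known, so it carries no test.

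The remaining Mmp genes did not reach the threshold. Mmp19 (chromosome 10, 128790910 to 128800824), which cleaves several basement membrane proteins, stood at 19.95 and 22.56 CPM in cKO, against 28.6 and 29.4 CPM in Control (log2 fold change -0.45, SE 0.33, edgeR adjusted p = 1.00). It was lower in both cKO libraries. In TPM the cKO libraries were also the lower ones, though cKO 1, at 14.5 TPM, was close to Control 1, at 15.1 TPM. Tmem198b and Gm47093 overlap Mmp19 on the opposite strand, and Tmem198b shares 789 of the 3533 exon bases of Mmp19. Tmem198b had between 2.13 and 3.87 TPM, and since no strand setting is stated its reads may not have been separated from those of Mmp19.

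The low Mmp genes were near the background. Mmp11 (stromelysin 3; chromosome 10, 75923222 to 75936496) stood at 1.40 and 1.25 CPM in cKO, against 0.845 and 0.546 CPM in Control (log2 fold change 0.93, SE 0.55, edgeR adjusted p = 1.00). It was higher in both cKO libraries, on 122 and 112 counts in cKO and 67 and 45 counts in Control. Its 1.69 and 1.11 TPM in cKO lay above the level below which 90% of the receptor genes fell (1.49 and 0.548 TPM), and its 0.698 and 0.545 TPM in Control lay below it (0.720 and 0.896 TPM). Chchd10, with 3.17 to 6.30 TPM, covers 155 of its 2778 exon bases on the other strand.

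Mmp15 (chromosome 8, 95352268 to 95375080), another membrane-type enzyme, stood at 2.45 and 1.78 CPM in cKO, against 1.60 and 1.69 CPM in Control (log2 fold change 0.36, SE 0.44, edgeR adjusted p = 1.00). The cKO 2 library was barely above Control, and without cKO 1 the log2 fold change was 0.13. Mmp9 (gelatinase B; chromosome 2, 164940780 to 164955850), which is abundant in neutrophils, stood at 1.21 and 0.583 CPM in cKO, against 1.13 and 0.425 CPM in Control (log2 fold change 0.20, SE 0.59, edgeR adjusted p = 1.00). The groups overlapped fully, and the sign turned negative without cKO 1 (-0.40) and without Control 2 (-0.37). The 11 neutrophil markers summed to 33.3 and 11.0 TPM in cKO, against 9.87 and 30.5 TPM in Control. Their part in the Mmp9 level was not tested.

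**Figure D2:**
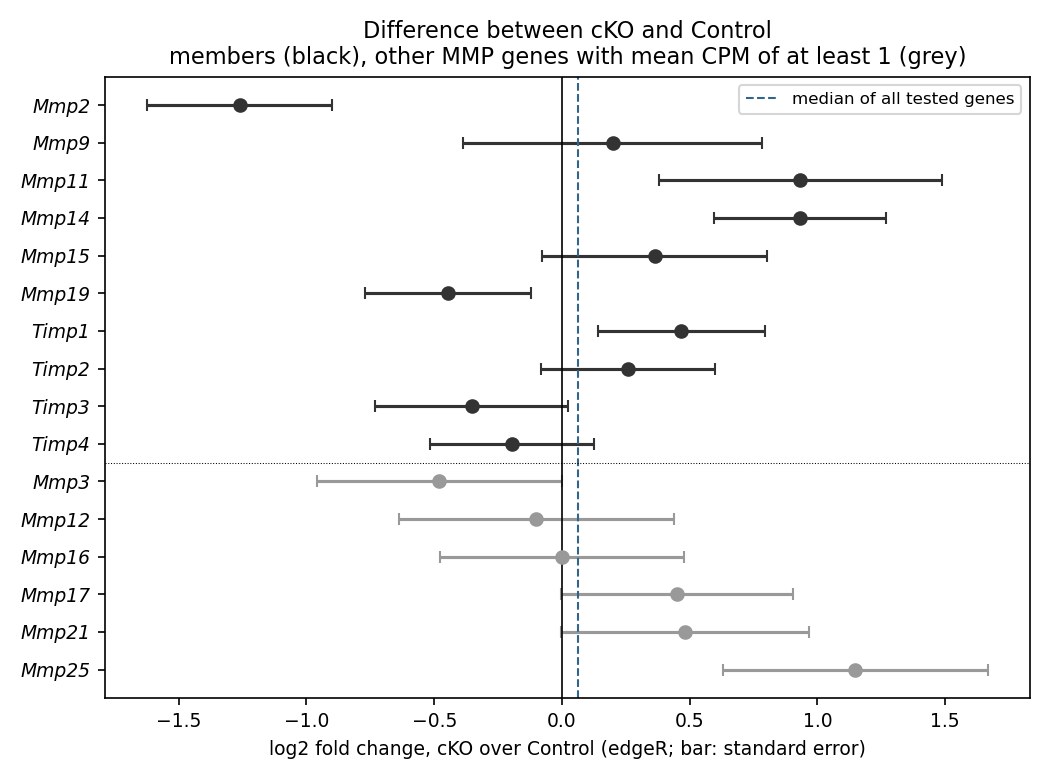
Log2 fold change of cKO over Control with its standard error from edgeR for the 10 genes (black) and the 6 other MMP genes whose CPM averaged 1 or more (grey), with a dashed line at the median of all tested genes, 0.06. Mmp2 lay at -1.26 and Mmp14 and Mmp11 at 0.93, and no gene shown passed the adjusted threshold.

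Among the inhibitors, Timp1 was the one whose groups did not overlap in CPM. Timp1 (chromosome X, 20870166 to 20874735), a secreted inhibitor that acts weakly on membrane-type enzymes such as Mmp14, stood at 30.5 and 37.1 CPM in cKO, against 25.2 and 23.7 CPM in Control. The groups did not overlap, and the log2 fold change was 0.47 (SE 0.33, edgeR adjusted p = 1.00). It was 0.61 without cKO 1 and 0.25 without cKO 2. In limma the difference was 0.61 (SE 0.14, adjusted p = 0.124) on the log2(TPM + 1) scale.

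Timp2 (chromosome 11, 118301069 to 118355740), the link between Mmp14 and Mmp2 precursor, stood at 67.9 and 115 CPM in cKO, against 84.7 and 68.5 CPM in Control (log2 fold change 0.26, SE 0.34, edgeR adjusted p = 1.00). The cKO libraries enclosed the Control ones. Without cKO 2 the log2 fold change was -0.24 and without cKO 1 it was 0.60, so the library left out set its direction. In TPM the groups did not overlap and cKO was the higher one, and limma gave 0.36 (SE 0.16, adjusted p = 0.335).

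Timp3 (chromosome 10, 86300372 to 86349506) stood at 439.9 and 707 CPM in cKO, against 832 and 633 CPM in Control (log2 fold change -0.35, SE 0.38, edgeR adjusted p = 1.00). In CPM the cKO 2 library lay between the Control libraries, and the lower mean came from cKO 1. In TPM the groups also overlapped, but there cKO 1, at 218 TPM, was close to Control 2, at 231 TPM. On that scale Control 1 stood highest, at 302 TPM, so the place of cKO 1 depends on the scaling. Without cKO 1 the log2 fold change was -0.04. Without cKO 2 it was -0.80, the only fit of those run in which Timp3 was called. That fit leaves 1 cKO library, and most genes called in it were lower in cKO, so nothing is read from the Timp3 call.

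Timp4 (chromosome 6, 115241892 to 115252205) stood at 11.9 and 17.5 CPM in cKO, against 18.6 and 15.1 CPM in Control (log2 fold change -0.20, SE 0.32, edgeR adjusted p = 1.00). The groups overlapped, and the log2 fold change was 0.07 without cKO 1 and -0.57 without cKO 2. Timp1, Timp3 and Timp4 each lie inside a synapsin gene on the opposite strand, a feature the selection did not use. Syn1 shares 0 exon bases with Timp1, Syn3 shares 1733 of 8144 with Timp3, and Syn2 shares 90 of 5894 with Timp4. The synapsin genes, known for synaptic vesicles, had between 0.119 and 1.70 TPM in all libraries, so they stood well below the Timp gene they surround.

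The make-up of each family was compared as the share of its summed TPM. Mmp2 made up 49.9% and 55.9% of the Mmp sum in cKO 1 and 2, against 81.0% and 78.4% in Control 1 and 2. Mmp14 made up 40.2% and 32.6% in cKO, against 9.91% and 13.9% in Control. In cKO the Mmp sum was therefore mostly these 2 genes together, while in Control it was mostly Mmp2. The shares hold the fall on which Mmp2 was selected, which by itself raises the shares of the other Mmp genes. They carry no test. Mmp19 held 7.69% and 9.76% in cKO and 8.003% and 7.03% in Control.

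On the inhibitor side the order was the same in all libraries, with Timp3 first, then Timp1, then Timp2, and Timp4 last. Timp3 held 63.1% and 66.4% of the Timp sum in cKO, against 76.4% and 73.5% in Control. Timp1 held 23.2% and 18.5% in cKO, against 12.4% and 14.8% in Control. Timp2 held 12.03% and 13.4% in cKO, against 9.70% and 9.99% in Control.

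The sums themselves overlapped between the groups. The 6 Mmp genes summed to 189 and 115 TPM in cKO, against 188 and 230.5 TPM in Control, and the 4 Timp genes to 346 and 362 TPM in cKO, against 395 and 315 TPM in Control. Timp transcripts outnumbered Mmp transcripts in every library, by 1.83 and 3.16 to 1 in cKO and 2.1 and 1.36 to 1 in Control. For each Timp2 transcript there were 2.27 and 1.32 Mmp2 transcripts in cKO, against 3.98 and 5.75 in Control, with no overlap. This ratio holds the fall on which Mmp2 was selected, so it carries no test. For each Timp2 transcript there were 1.83 and 0.769 Mmp14 transcripts in cKO, against 0.487 and 1.02 in Control, and here the groups overlapped.

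**Figure D3:**
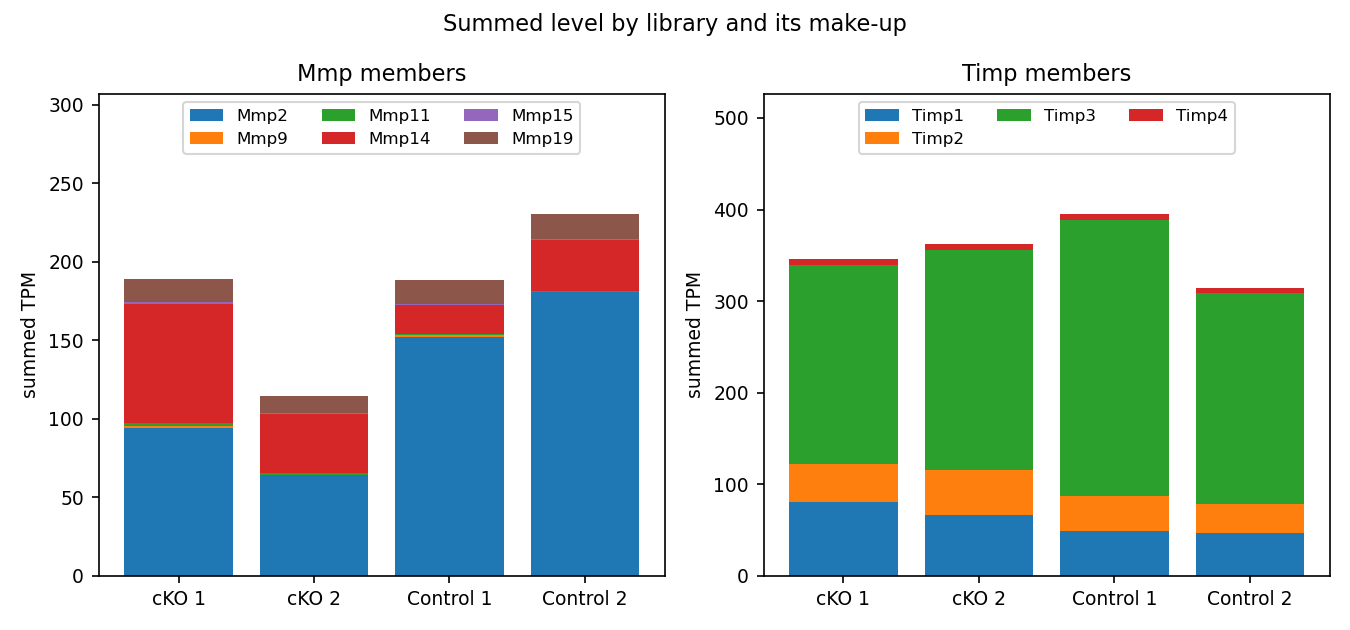
Summed TPM of the Mmp genes (left) and Timp genes (right) in each library, stacked by gene, with cKO libraries to the left of Control. Mmp2 filled 49.9% and 55.9% of the bar in cKO and 81.0% and 78.4% in Control, while the Timp bars were all led by Timp3.

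The deposited counts may derive from transcript coverage, so a change in the mean length of a gene's transcripts could enter them. The ratio of count to TPM, which follows that length, differed between the groups by -0.0069 (log2) for Mmp2, 0.0011 for Mmp14 and -0.00039 for Timp1. The largest differences were -0.10 for Mmp15 and 0.10 for Mmp9, both low genes.

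Leaving out libraries separated the 10 genes into those with a stable and those with an unstable direction. Mmp2, Mmp11, Mmp14, Mmp15, Mmp19, Timp1 and Timp3 kept their sign in every alternative that gave them a value, while Mmp9, Timp2 and Timp4 turned in at least 1. Leaving out 1 library cannot turn a gene whose groups do not overlap in CPM, apart from changes in scaling. All genes that kept their sign except Timp3 were of this kind, as were 31.3% of all genes. For Mmp15 and Timp3 the value came close to 0 without cKO 1.

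**Figure D4:**
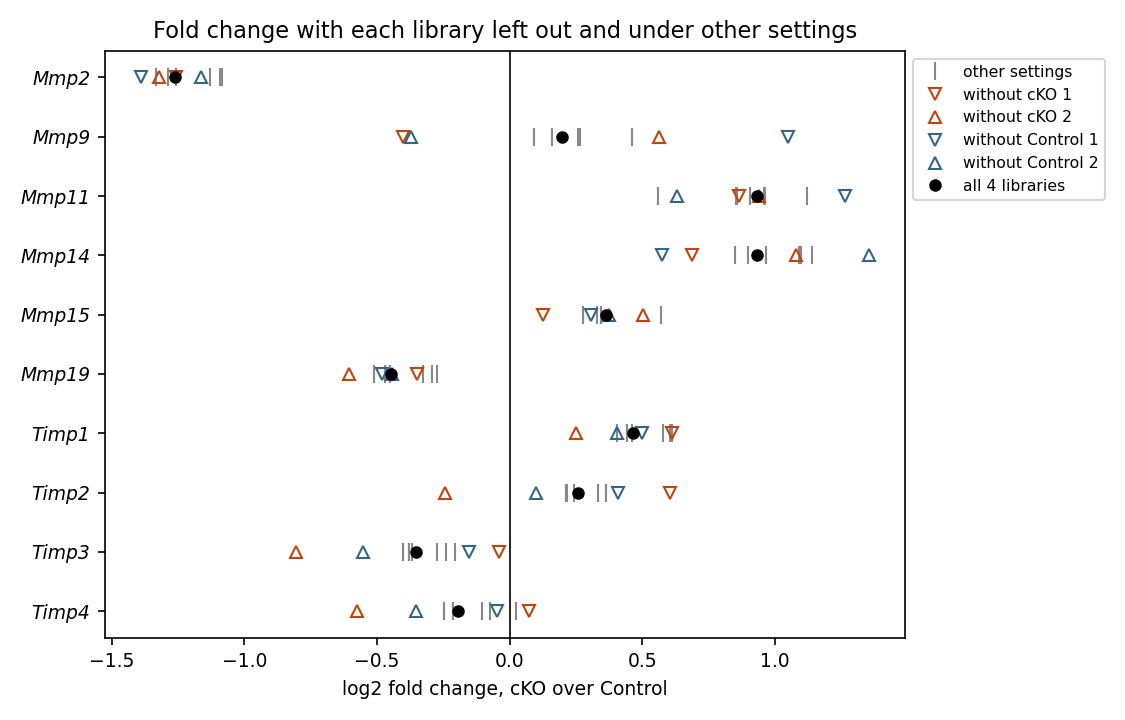
Log2 fold change of cKO over Control for each gene with all 4 libraries (black), with 1 library left out (red for cKO, blue for Control libraries) and under the other settings (grey ticks). Mmp2 stayed between -1.39 and -1.08 and Mmp14 between 0.57 and 1.35, while Mmp9, Timp2 and Timp4 crossed 0.

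The other 17 MMP genes were low. Of these, 12 stayed under 1 TPM in all libraries, and 0 of 17 were called in edgeR, with a median log2 fold change of -0.00062, beside 0.06 over all genes. Their sum was 14.5 and 6.97 TPM in cKO, against 7.75 and 8.30 TPM in Control, and so was highest in cKO 1, the library with the higher background. Those whose CPM averaged 1 or more were Mmp3, Mmp12, Mmp16, Mmp17, Mmp21 and Mmp25. Mmp25, a membrane-anchored enzyme of leukocytes, had the widest difference of these, with 1.34 and 2.08 CPM in cKO and 0.756 and 0.788 CPM in Control (log2 fold change 1.15, SE 0.52, edgeR adjusted p = 0.840).

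Of 25 Adam and Adamts proteases, relatives that share the zinc site, 0 rose and 0 fell past the threshold in edgeR, and 15 had a positive log2 fold change (median 0.10). Beside this count and those of the lists below stands the 55.0% of all genes tested that had a positive value. Adamts1, Adamts4 and Adam9 had the highest mean CPM, and also the highest mean TPM. Adamts1, which cleaves the proteoglycan versican, stood at 902 and 1213 CPM in cKO, against 1538 and 1312 CPM in Control (log2 fold change -0.43, edgeR adjusted p = 1.00). Adamts4, another proteoglycan-cleaving enzyme, stood at 260.0 and 236 CPM in cKO, against 149 and 165 CPM in Control (0.66, edgeR adjusted p = 1.00), without overlap. It was called without cKO 1 (0.60, edgeR adjusted p = 0.0308) and without cKO 2 (0.66, edgeR adjusted p = 0.0251). Adam9 had a log2 fold change of 0.03.

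Of 22 genes for activators of Mmp precursors and for receptors and partners of Mmp and Timp proteins, 0 passed in either direction and 12 had a positive log2 fold change (median 0.10). Those with the highest mean CPM, a scale not corrected for length, were Cd44, the hyaluronan receptor that can hold Mmp9 at the cell surface, Cd63, a surface partner of Timp1, and Thbs2, a matrix protein that promotes uptake of Mmp2. Their log2 fold changes were -0.37, -0.34 and -0.09, each with an edgeR adjusted p = 1.00. By mean TPM, Plaur, the urokinase receptor, stood above Thbs2, with 349 against 259 TPM. Plaur, added after its values were seen, had a log2 fold change of 0.26 (edgeR adjusted p = 1.00).

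Of 37 matrix proteins that serve as substrates, 0 rose and 1 fell, Lamb1, against 0.186% of all genes called lower, and 23 had a positive log2 fold change (median 0.11). Lamb1, a laminin chain of the basement membrane, stood at 15.7 and 13.9 CPM in cKO, against 32.9 and 38.9 CPM in Control (log2 fold change -1.28, SE 0.33, edgeR adjusted p = 0.0255). Its direction was the same in all 12 alternatives, but it was called in 5 of them. Left out in turn, Control 1 (-1.41) and Control 2 (-1.17) each took the call away. So did the replicate block (edgeR adjusted p = 0.291), DESeq2 size factors (0.257), the absence of a low-count filter (0.579), the 5 CPM filter (0.143) and limma on TPM (0.191). The substrates with the highest mean CPM, Col3a1, Sparc and Col5a2, had log2 fold changes of -0.60, -0.46 and -0.21, each with an edgeR adjusted p = 1.00. By mean TPM the small proteoglycans Dcn (140.5 TPM) and Bgn (104 TPM), added after their values were seen, stood above Col5a2 (88.8 TPM). Their log2 fold changes were 0.27 and 0.59, each with an edgeR adjusted p = 1.00. Without cKO 2, Adamts1 (-0.73), Cd63 (-0.74), Thbs2 (-0.56), Col3a1 (-0.77) and Sparc (-0.74) passed the edgeR threshold. That fit leaves 1 cKO library and had the most genes called, most of them lower in cKO, so nothing is read from these calls.

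The genes whose pattern was most like that of Mmp2 were sought among 71 genes of these 3 lists whose CPM averaged 4 or more. Likeness was the root mean square difference in log2 CPM, centred over the 4 libraries. Since Mmp2 was selected on its lower level in cKO, a small difference picks genes that are also lower there. The likeness therefore carries no test. Lamb1 was closest, at 0.058, followed by Tnc at 0.15 and Col3a1 at 0.34. Tnc, a matrix glycoprotein of tendon and injured muscle, stood at 17.5 and 20.1 CPM in cKO, against 36.3 and 39.5 CPM in Control (log2 fold change -1.01, SE 0.33, edgeR adjusted p = 0.217). Tnc was called without cKO 1 (-0.91, edgeR adjusted p = 0.0102), without cKO 2 (-1.18, edgeR adjusted p = 0.00640) and under library totals (-0.86, edgeR adjusted p = 0.0353). Among all 10574 genes compared, 2 were closer to Mmp2 than Lamb1 and 207 were closer than Col3a1. For Tnc the number was 12. Tnc was named through this likeness, so nothing is read from its calls.

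Markers of other cells were measured beside these genes. Macrophage and monocyte markers (14 genes) summed to 84.3 and 63.3 TPM in cKO, against 45.7 and 54.1 TPM in Control, tenocyte markers (9 genes) to 87.0 and 54.2 TPM in cKO, against 51.8 and 59.5 TPM in Control, and mural cell markers (10 genes) to 277 and 218 TPM in cKO, against 222 and 214 TPM in Control. Schwann cell markers (8 genes) summed to 197 and 189 TPM in cKO, against 180.3 and 190.2 TPM in Control, and mature fibre markers (15 genes) to 143 and 99.4 TPM in cKO, against 136 and 125 TPM in Control. The fibre sums overlapped, but 11 of the 15 genes had a negative log2 fold change (median -0.45), and 8 were lower in cKO without overlap, against 13.3% of all genes. None of these lists had a called gene or a gene at 0 counts. Of 9 erythroid markers 5 were called higher in edgeR, against 0.364% of all genes called higher. They were Alas2 and 4 globin genes, and the list summed to 1804 and 1474 TPM in cKO, against 339 and 765 TPM in Control. The calls of Alas2 and of the globin genes were lost with any 1 library left out. With all libraries, Alas2 was still called in DESeq2, with DESeq2 size factors and under both blocks, while the globin genes were called only with Control 1 paired to cKO 2 and Control 2 to cKO 1, among the 12 alternatives run. Under the block by replicate number the edgeR adjusted p of the globin genes lay between 0.0754 and 0.321. The part of these cells in the levels of the Mmp and Timp genes was not tested.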

How the data were processed

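The authors deposited an estimated count per gene, as a whole number, and separately the TPM per gene, which sums to the same total in every library. Both were used without rounding. The submitters' processing notes name GRCm38, StringTie 1.3.6 and HISAT2 2.1.0, with no role or order. The annotation release, any filter and the strand setting were not given in the sources used here. RNA was extracted with a low-input kit and made into SMART-Seq cDNA, per the labels' protocols.

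The counts of all genes were fitted with edgeR 4.0.16 (R 4.3.3; TMM, filterByExpr, robust quasi-likelihood, no covariate) and the TPM with limma 3.58.1 on log2(TPM + 1), keeping genes that averaged 1 TPM or more, both adjusted by Benjamini-Hochberg over all tested genes. CPM use the TMM-scaled totals. The SE of a fold change is its size over the square root of F. DESeq2 1.42.0, other scalings, filters, a replicate block and each library left out were alternatives. Scripts were tested on simulated counts. At these totals precision is limited by differences among libraries rather than by counting (common biological coefficient of variation 0.373).

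The libraries of a group differed by more than counting alone would give, over genes that averaged 20 counts or more. The chi-square over degrees of freedom was 83.5 in cKO and 49.6 in Control. The counts are estimates, and these values do not show whether the libraries came from separate animals. Loci, overlaps and coding sequences came from GENCODE M21 on GRCm38.

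The genes and lists were chosen with earlier results of these data known. The genes named were all 10 members, other MMP genes that averaged 1 CPM or more, and in each pathway list the called genes and the 3 with the highest mean CPM. For marker lists, called genes and sums are given.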

Additional observations from a re-analysis of the deposited data

How the results depend on the processing

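The number of genes called in edgeR, 210 with all libraries (139 higher and 71 lower), was 119 with DESeq2 size factors (66 higher and 53 lower), 282 under scaling by library totals, 28 without a low-count filter, 14 where 2 libraries had to reach 5 CPM, 96 in DESeq2 (53 higher and 43 lower), 53 in limma on TPM, and between 51 and 2267 with 1 library left out. Of the 10 Mmp and Timp genes 0 were called with all libraries, 1 under scaling by library totals, 1 in DESeq2, and between 0 and 2 with 1 library left out. Mmp2 was the gene in each, joined by Timp3 without cKO 2. In limma the 53 calls became 102 with a pseudocount of 0.1, 404 with no filter on low TPM, and between 18 and 608 with 1 library left out. The cause of these moves was not tested.

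With the replicate number as a block, 96 genes were called, 86 of them among the 210, and 0 of the 10. Same-numbered libraries tended only weakly to deviate in opposite directions (correlation -0.16 across 16559 genes). The replicate number coincides with the L01 or L02 part of the library code, whose meaning the labels do not give. A block with crossed numbers, chosen after seeing the data, gave 243 calls.

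Directions that turned were Mmp9 (-0.37 without Control 2, and from -0.40 to 1.05 with 1 library left out), Timp2 (from -0.24 without cKO 2 to 0.60 without cKO 1) and Timp4 (from -0.57 without cKO 2 to 0.073 without cKO 1, and 0.025 in limma). Among the other genes named they were Mmp12 (0.025 with library totals, from -0.59 to 0.61 with 1 library left out, 0.10 without cKO 1), Mmp16 (0.27 with library totals, 0.058 without Control 2, and from -0.76 to 0.43 with 1 library left out), Adam9 (-0.030 with DESeq2 size factors and in DESeq2, -0.0077 without Control 1, -0.26 without cKO 2), Cd44 (from -1.12 without cKO 2 to 0.11 without cKO 1) and Thbs2 (0.015 with library totals, 0.016 without Control 1, 0.23 without cKO 1, -0.56 without cKO 2, 0.024 in limma). Library totals moved the median of all genes by 0.19, and leaving out cKO 1 by -0.12. Genes under about 1 TPM cannot be told from the background of cKO 1.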
